A study of Mus musculus with 46 samples.

Results

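The genes described here encode the enzymes and the helper protein that turn membrane arachidonic acid into prostaglandins, thromboxane and leukotrienes, the lipid messengers called eicosanoids. The 9 members are the rows with the symbols Pla2g4a, Ptgs1, Ptgs2, Ptges, Hpgds, Tbxas1, Alox5ap, Alox5 and Ltc4s. All 9 were found in each of the 3 expression tables of the study, which list 15695 genes for subventricular zone (SVZ) tissue, 15285 genes for sorted brain myeloid cells with and without lipopolysaccharide (LPS), and 19930 genes for sorted cells after GLOBAL repopulation.

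The study followed microglia, the resident macrophages of the brain, as they return after elimination with PLX3397, an inhibitor of CSF1R, KIT and FLT3 given in chow at 600 ppm to C57BL/6 mice of 2 months of age. SVZ tissue came from vehicle controls, from mice after 14 days of PLX3397 and from mice after 14 days of PLX3397 and 5 days of recovery (n = 5 each). CD11b+CD45int cells were sorted from whole hemispheres of vehicle controls and of mice given 14 days of PLX3397 and 28 days of recovery, whose brains are refilled from the white matter (WM repopulating cells). These mice received no LPS (0 hr) or were taken 6 or 24 hr after 0.33 mg/kg LPS by intraperitoneal injection, with 3, 5 and 4 control libraries at 0, 6 and 24 hr and 4 WM libraries at each time. In the GLOBAL experiment, the same gate was used on 4 controls and on 3 mice given 7 days of PLX3397 and 28 days of recovery, without LPS. The labels name no transgene or deletion for any group. All sorted groups share the gate, which does not by itself separate microglia from other CD11b+ cells.

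The 46 libraries held 2.21 to 10.6 M assigned reads, with medians of 8.24 M for SVZ tissue, 7.06 M for the LPS experiment and 3.10 M for the GLOBAL experiment. Values are FPKM (fragments scaled by the length of the gene and the size of the library), so levels can be compared between genes, but each table was normalized on its own and groups were compared only within a table. The 10 microglia markers were all present in the sorted cells, with a summed level of 20833 to 24912 FPKM at 0 hr, and neutrophil markers were present in every sorted library, with sums from 492 to 15429 FPKM in the LPS experiment and from 1469 to 23324 FPKM in the GLOBAL experiment. In SVZ tissue, 1 control library stood apart, with a summed level of 21338 FPKM for choroid plexus epithelium markers against 25.6 to 127 in the other 4 controls.

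Eicosanoid synthesis starts when a phospholipase frees arachidonic acid from membrane phospholipids. Cyclooxygenases convert it to prostaglandin H2, which terminal synthases turn into prostaglandin E2, prostaglandin D2 or thromboxane A2, while 5-lipoxygenase, with its activating protein, makes leukotriene A4, from which leukotriene C4 is formed by conjugation with glutathione. In the brain, Ptgs1 is known as a microglial gene, and Ptgs2 and Ptges are known for their induction by inflammatory stimuli.

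The members lie on 5 chromosomes, and positions are those of RefSeq genes on GRCm38.p6, the build that corresponds to mm10. Pla2g4a (chr1:149829618-149961290) and Ptgs2 (chr1:150100031-150108234) are neighbours on chromosome 1, with 138740 bases between them. Ptges (chr2:30889471-30931020) and Ptgs1 (chr2:36216742-36258593) lie on chromosome 2, Alox5ap (chr5:149265004-149288153) on chromosome 5, and Tbxas1 (chr6:38864159-39084590), Hpgds (chr6:65117293-65144981) and Alox5 (chr6:116410071-116461178) on chromosome 6. Ltc4s (chr11:50236461-50238532) is on chromosome 11 and is the shortest of them. The annotated span of Tbxas1 overlaps the genes Hipk2 and 1700025N23Rik, which are also listed for the sorted cells. Whether reads were counted by strand is not given in the sources used here, so how reads of the overlap were counted is not known.

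The upstream sequences of Ptgs2, Ptges and Alox5 are shown as examples of genes that rose after LPS (Ptges by 6 hr, Ptgs2 by 6 hr in control cells and Alox5 at 24 hr), chosen after their values were seen. Each is the stretch of 250 bases before the RefSeq start site, written 5′ to 3′ in the direction of the gene, from chr1:150099781-150100030 (plus strand) for Ptgs2, chr2:30903298-30903547 (minus strand) for Ptges and chr6:116461179-116461428 (minus strand) for Alox5 on GRCm38.p6. The start site used for Ptges lies inside the annotated span of the gene given above. Capitals mark matches, on either strand, to the C/EBP motif or the Sp1 GC box.
Ptgs2: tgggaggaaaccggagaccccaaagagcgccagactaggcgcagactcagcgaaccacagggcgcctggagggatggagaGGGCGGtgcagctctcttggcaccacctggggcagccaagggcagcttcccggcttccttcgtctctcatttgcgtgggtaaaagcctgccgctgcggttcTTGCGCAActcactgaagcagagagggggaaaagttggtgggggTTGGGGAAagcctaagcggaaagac
Ptges: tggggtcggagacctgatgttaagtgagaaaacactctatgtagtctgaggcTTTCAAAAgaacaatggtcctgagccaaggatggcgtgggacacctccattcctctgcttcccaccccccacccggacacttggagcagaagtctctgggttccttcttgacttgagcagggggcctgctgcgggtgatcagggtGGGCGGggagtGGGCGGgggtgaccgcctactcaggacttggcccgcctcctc
Alox5: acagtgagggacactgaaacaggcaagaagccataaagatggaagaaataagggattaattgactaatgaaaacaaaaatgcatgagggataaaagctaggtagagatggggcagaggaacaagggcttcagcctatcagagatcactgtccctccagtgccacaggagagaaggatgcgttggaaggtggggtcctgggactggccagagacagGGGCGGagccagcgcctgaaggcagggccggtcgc
The Ptgs2 sequence held 2 C/EBP matches, at -69 to -62 and -25 to -18 from the start site, and a GC box at -170 to -165. The Ptges sequence held 2 GC boxes, at -53 to -48 and -42 to -37, and a C/EBP match at -198 to -191, and the Alox5 sequence held a GC box at -35 to -30. Over the 32851 RefSeq start sites searched in the same way, 36.8% held the C/EBP motif, searched as TTNNGNAA, and 32.7% held the GC box, searched as GGGCGG, so these matches are common. None of the 3 sequences held the kappaB motif (7.25% of start sites), the cAMP response element core, searched as TGACG (17.8%), or the TATA box, searched as TATAA (22.8%). An upstream sequence was at hand for 8 of the 9 members, and Alox5ap was the exception. Matches were found before other members as well, risen or fallen: Pla2g4a, which rose, held 2 overlapping C/EBP matches (-112 to -105 and -111 to -104) before 1 of its start sites and 2 overlapping TATA matches (-199 to -195 and -198 to -194) before the other, Hpgds, which fell at 6 hr, held 2 C/EBP matches (-176 to -169 and -144 to -137), and Tbxas1, which also fell, held 2 overlapping TATA matches (-12 to -8 and -11 to -7).

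In the absence of treatment, sorted control cells carried the members at widely different levels. Ltc4s, the leukotriene C4 synthase, was the highest at 1114 ± 111 FPKM (SD, n = 3), followed by Alox5ap (408 ± 54.7), which presents arachidonic acid to 5-lipoxygenase, and Ptgs1 (379 ± 33.0), the constitutive cyclooxygenase. Hpgds, which makes prostaglandin D2, reached 218 ± 40.5 FPKM, and Tbxas1, which makes thromboxane A2, 207 ± 5.74 FPKM. Pla2g4a, the cytosolic phospholipase A2, was at 39.8 ± 4.25 FPKM and Alox5, the lipoxygenase itself, at 20.3 ± 0.977 FPKM. Ptgs2, the inducible cyclooxygenase, was at 0.360 ± 0.0918 FPKM on 8 to 13 reads per library, and Ptges, the inducible prostaglandin E2 synthase, was listed at 0 in all 3 libraries. Alox5ap and Ptgs1 overlapped between libraries, as did Hpgds and Tbxas1, and the other neighbours in this order did not.

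**Figure D1:**
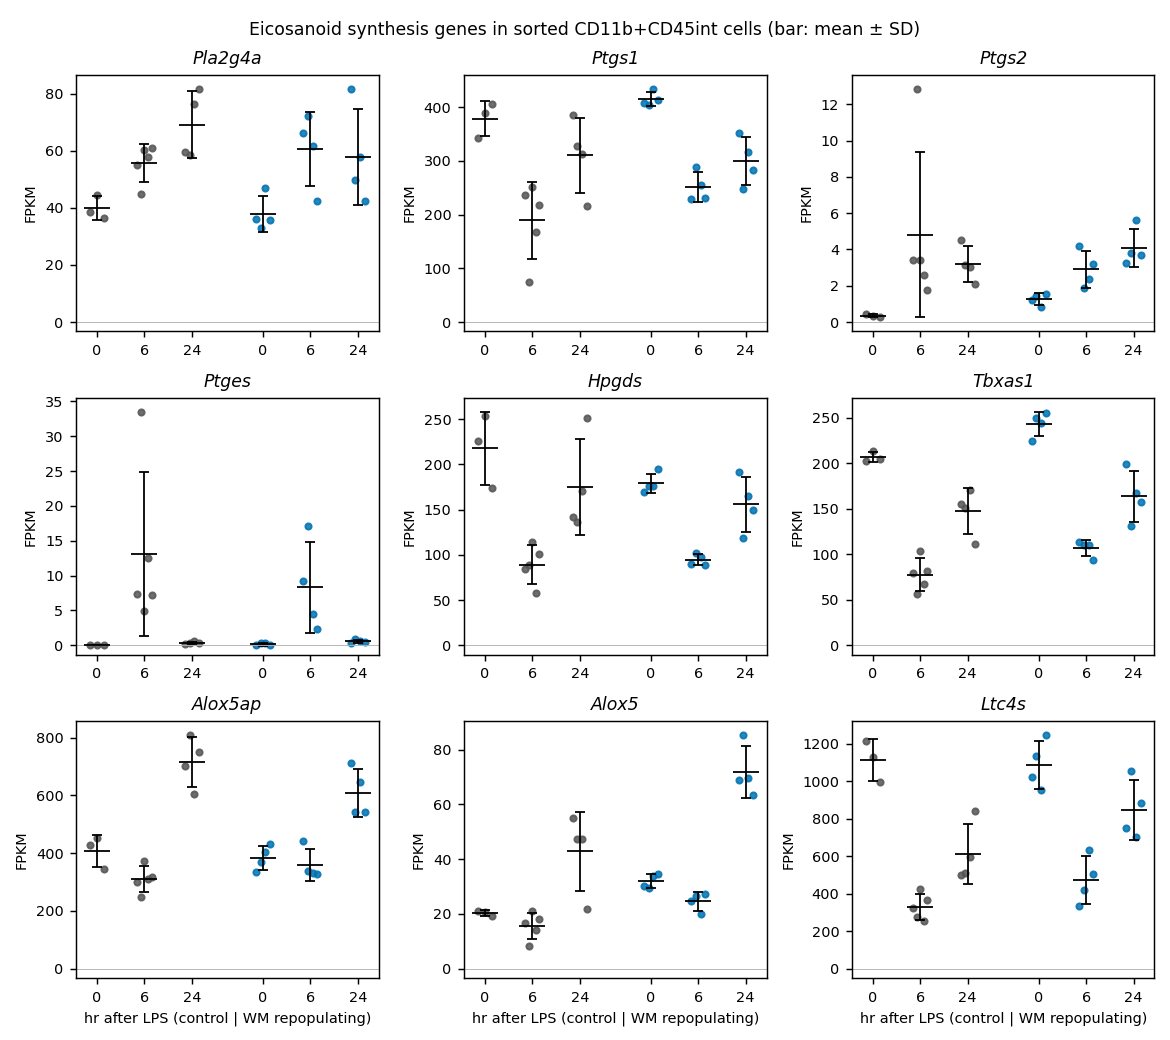
FPKM of the 9 members in each sorted CD11b+CD45int library (vertical axis, linear) by hour after LPS for control (grey) and WM repopulating cells (blue), with the mean and SD as a bar. Ptges was above 2 FPKM in each 6 hr library and below 1 FPKM in each other library, and Ltc4s, Tbxas1, Hpgds and Ptgs1 were lowest on average at 6 hr.

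LPS was given to ask how control and repopulating cells respond to an inflammatory stimulus. In control cells at 6 hr, 8 of the 9 members were called at an adjusted p under 0.05 (limma on log2(FPKM + 1), adjusted over 12684 genes), against 42.5% of all tested genes, so that most members moved in a comparison in which a large share of all genes moved. Ptgs2, Ptges and Pla2g4a rose, and Ptgs1, Hpgds, Tbxas1, Alox5ap and Ltc4s fell. In WM repopulating cells at 6 hr, 6 of 9 were called against 38.8% of all genes: Ptges and Pla2g4a rose, and Ptgs1, Hpgds, Tbxas1 and Ltc4s fell. The median log2 fold change of the members was -0.42 in control cells and -0.38 in WM cells, beside 0.01 and -0.0047 over all tested genes.

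Ptges had the largest log2 change of the 9 members at 6 hr in both kinds of cells. It was read at 7.38, 33.5, 4.97, 12.5 and 7.22 FPKM in the 5 control libraries at 6 hr and at 9.28, 17.1, 4.502 and 2.39 FPKM in the 4 WM libraries at 6 hr. Each of these 9 libraries was above all libraries at 0 and 24 hr, which ran from 0 to 0.388 FPKM at 0 hr and from 0.131 to 0.880 FPKM at 24 hr. On the log2(FPKM + 1) scale, Ptges was higher by 3.51 ± 0.43 (SE) in control cells (adjusted p = 6.5e-07, limma) and by 2.74 ± 0.42 in WM cells (adjusted p = 1.51e-05), both at 6 hr against 0 hr. Because the control libraries at 0 hr are listed at 0, the ratio of group means is a bound: with a floor of 3 reads in each of those libraries, the 6 hr control mean of 13.1 FPKM was at least 106-fold higher. The library at 33.5 FPKM, control replicate 2 at 6 hr, carried much of this mean, and without it the mean was 8.02 FPKM and at least 65.0-fold higher than the same floor. For WM cells no ratio is given, since Ptges had 0, 6, 11 and 0 reads in the libraries at 0 hr. With a pseudocount of 0.1 in place of 1, the 6 hr change of Ptges was 6.69 in control and 5.0004 in WM cells. From 6 to 24 hr, Ptges fell by 3.10 ± 0.40 on the log2 scale in control cells (adjusted p = 4.7e-06, and by 4.66 with a pseudocount of 0.1) and by 2.32 ± 0.42 in WM cells (adjusted p = 0.000518).

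Ptgs2 rose from a low base and stayed up. Control cells had 0.466, 0.315 and 0.300 FPKM at 0 hr and 3.403, 12.9, 3.43, 2.62 and 1.75 FPKM at 6 hr, and 4.51, 3.15, 3.06 and 2.09 FPKM at 24 hr. No library at 6 or 24 hr overlapped those at 0 hr, and the change was 1.84 ± 0.33 on the log2(FPKM + 1) scale at 6 hr (adjusted p = 0.000103, limma) and 1.60 ± 0.35 at 24 hr (adjusted p = 0.00193). With a pseudocount of 0.1, these changes of Ptgs2 were 3.07 and 2.81. WM cells had 1.24, 1.45, 0.805 and 1.55 FPKM at 0 hr, 4.17, 1.86, 2.36 and 3.22 FPKM at 6 hr, and 3.25, 3.83, 5.63 and 3.68 FPKM at 24 hr. In WM cells the groups also did not overlap, but the difference at 6 hr did not pass the test (0.76 ± 0.32, adjusted p = 0.0654), while that at 24 hr did (1.16 ± 0.32, adjusted p = 0.0132). The 6 hr difference passed with only the groups compared in the fit (adjusted p = 0.0154) and with a pseudocount of 0.1 (1.12, adjusted p = 0.0365). The response at 6 hr in WM cells minus that in control cells was -1.07 ± 0.47 for Ptgs2 (adjusted p = 0.658, limma), so that a difference between the responses was not shown. Its size depended on 1 library and on the pseudocount, with -0.69 without the control library at 12.9 FPKM (replicate 2 at 6 hr) and -1.95 with a pseudocount of 0.1, neither of which passed the test. Pla2g4a, which supplies the arachidonic acid, went from 38.5, 44.6 and 36.4 FPKM at 0 hr to 54.9, 44.8, 60.1, 57.8 and 61.0 FPKM at 6 hr in control cells (0.47 ± 0.19, adjusted p = 0.0479). Of 14 alternative fits, 11 took this call of Pla2g4a away, so it lies at the threshold. At 24 hr its values of 59.6, 58.5, 76.5 and 81.8 FPKM in control cells were all above those at 0 hr (0.77 ± 0.20, adjusted p = 0.00687). In WM cells Pla2g4a was at 36.0, 32.9, 46.9 and 35.7 FPKM at 0 hr, at 66.3, 72.2, 61.7 and 42.3 FPKM at 6 hr (0.65 ± 0.18, adjusted p = 0.00672), and at 81.4, 49.9, 57.7 and 42.5 FPKM at 24 hr (0.57 ± 0.18, adjusted p = 0.0304). This 24 hr call in WM cells was lost in 5 of 14 alternatives, and without WM replicate 1 at 24 hr, the library at 81.4 FPKM, the difference was 0.39 (adjusted p = 0.139).

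The constitutive prostaglandin and thromboxane genes moved the other way at 6 hr. Tbxas1 was at 202, 213 and 205 FPKM in control cells at 0 hr, at 79.4, 56.4, 104, 67.2 and 81.9 FPKM at 6 hr, and at 156, 151, 171 and 111 FPKM at 24 hr, so that the 3 times did not overlap. It fell by 1.43 ± 0.16 on the log2 scale at 6 hr (adjusted p = 1.82e-07, limma) and was higher by 0.93 ± 0.15 at 24 hr than at 6 hr (adjusted p = 6.11e-05). In WM cells Tbxas1 was at 225, 249.2, 245 and 255 FPKM at 0 hr, at 113, 111, 110.1 and 93.9 FPKM at 6 hr, and at 199, 131, 168 and 157 FPKM at 24 hr, again with no overlap, and it fell by 1.18 ± 0.16 at 6 hr (adjusted p = 2.27e-06). At 24 hr it was still below 0 hr in control cells (-0.50 ± 0.17, adjusted p = 0.0355) and in WM cells (-0.58 ± 0.16, adjusted p = 0.0106). The control call was lost without any 1 of 5 of the 7 libraries compared. It was also lost with the replicate block (-0.46, adjusted p = 0.0552) and with only the groups compared in the fit (adjusted p = 0.0609).

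Hpgds also fell at 6 hr, with 226, 253 and 174 FPKM in control cells at 0 hr and 84.3, 89.1, 115, 57.3 and 100.4 FPKM at 6 hr. At 24 hr it was at 142, 136, 170.5 and 252 FPKM, which overlapped 0 hr, and the 24 hr difference from 0 hr did not pass the test (-0.34 ± 0.21, adjusted p = 0.265). Hpgds in WM cells was at 169.7, 176, 176 and 194 FPKM at 0 hr, at 90.0, 102, 97.3 and 88.6 FPKM at 6 hr and at 191, 119, 165 and 149 FPKM at 24 hr. The fall at 6 hr was 1.30 ± 0.20 in control cells (adjusted p = 1.32e-05) and 0.92 ± 0.19 in WM cells (adjusted p = 0.000556), and Hpgds was higher at 24 hr than at 6 hr in control cells (0.96 ± 0.18, adjusted p = 0.000384) and in WM cells (0.70 ± 0.19, adjusted p = 0.0145), where the call was lost without WM replicate 1 at 24 hr (0.60, adjusted p = 0.0608).

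Ptgs1 was at 342, 389 and 405 FPKM in control cells at 0 hr, at 237, 73.9, 250.8, 167 and 217 FPKM at 6 hr, and at 385, 327, 313 and 217 FPKM at 24 hr. The fall at 6 hr (-1.11 ± 0.26, adjusted p = 0.00126) was smaller without the control library at 73.9 FPKM (-0.81, adjusted p = 0.000404). In WM cells Ptgs1 was at 408, 404, 435 and 414 FPKM at 0 hr and at 229, 289, 255 and 230.2 FPKM at 6 hr (-0.73 ± 0.25, adjusted p = 0.024), and at 24 hr it was at 351, 247, 316 and 283 FPKM. The 6 hr call in WM cells was lost without any 1 of 3 libraries, WM replicate 3 at 0 hr (adjusted p = 0.0515) and WM replicates 1 and 4 at 6 hr (adjusted p = 0.0561 and 0.0553). Ptgs1 was higher at 24 hr than at 6 hr in control cells (0.80 ± 0.24, adjusted p = 0.0137), where the groups overlapped, and did not pass the test in WM cells (0.25 ± 0.25, adjusted p = 0.559). Without the control library at 73.9 FPKM this rise of Ptgs1 was 0.49 (adjusted p = 0.0199), and the call was lost without control replicate 1 at 24 hr (0.69, adjusted p = 0.053) and with only the groups compared in the fit (adjusted p = 0.106).

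Ltc4s, of the leukotriene genes, fell the furthest of the 5 members that fell in control cells, from 1215, 1132 and 996 FPKM at 0 hr to 326, 277, 426, 254 and 366 FPKM at 6 hr, and it was at 497, 511, 594 and 843 FPKM at 24 hr. In WM cells Ltc4s was at 1021, 1133, 955 and 1248 FPKM at 0 hr, at 332, 419.7, 632 and 507 FPKM at 6 hr, and at 750.3, 1055, 702 and 883 FPKM at 24 hr. Its fall at 6 hr was 1.77 ± 0.20 in control cells (adjusted p = 2.25e-07) and 1.24 ± 0.20 in WM cells (adjusted p = 2.55e-05). At 24 hr Ltc4s was still lower than at 0 hr in control cells (-0.89 ± 0.21, adjusted p = 0.00388), while in WM cells the difference did not pass the test (-0.37 ± 0.20, adjusted p = 0.201), and the difference of these 24 hr responses did not pass either (0.52 ± 0.29, adjusted p = 0.635). From 6 to 24 hr Ltc4s rose in control cells (0.88 ± 0.19, adjusted p = 0.00103) and in WM cells (0.86 ± 0.20, adjusted p = 0.00396).

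Alox5 and Alox5ap rose at 24 hr in both kinds of cells. Alox5 was at 21.1, 20.6 and 19.2 FPKM at 0 hr, at 16.6, 8.31, 20.96, 14.002 and 17.96 FPKM at 6 hr and at 54.8, 47.2, 47.5 and 21.6 FPKM at 24 hr in control cells. Of the control libraries at 24 hr, 3 were at 47.2 FPKM or more and the remaining library, replicate 4, lay just above the highest at 0 hr, so the groups did not overlap. The change from 0 hr was 0.96 ± 0.25 (adjusted p = 0.00766) with that library and 1.25 without it. In WM cells Alox5 was at 30.2, 29.6, 33.6 and 34.6 FPKM at 0 hr, at 24.5, 26.4, 19.8 and 27.4 FPKM at 6 hr and at 68.8, 85.3, 69.6 and 63.3 FPKM at 24 hr, and rose by 1.13 ± 0.23 from 0 to 24 hr (adjusted p = 0.00116). Alox5ap was at 427, 451 and 347 FPKM at 0 hr, at 301, 248.7, 373, 309.8 and 318 FPKM at 6 hr and at 701, 809.5, 606 and 749 FPKM at 24 hr in control cells, a rise from 0 to 24 hr of 0.81 ± 0.15 (adjusted p = 0.000529). WM cells had 336, 368, 404 and 430.4 FPKM of Alox5ap at 0 hr, 443, 338, 331 and 327 FPKM at 6 hr and 711, 542, 645 and 541 FPKM at 24 hr, a rise of 0.66 ± 0.14 (adjusted p = 0.00193). The fall of Alox5ap at 6 hr in control cells (-0.40 ± 0.15, adjusted p = 0.0321) came with overlapping groups and was lost under 6 of 14 alternatives.

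At 24 hr against 0 hr, 6 of the 9 members were called in control cells, beside 21.3% of all tested genes, and 5 of 9 in WM cells, beside 18.8%. Between 6 and 24 hr, 7 of 9 were called in control cells, beside 28.3%, and 6 of 9 in WM cells, beside 15.7%. Ptges was the member called lower at 24 hr than at 6 hr, and the other 6 calls in control cells and the other 5 in WM cells were higher at 24 hr. These comparisons share libraries, so their counts are not independent of each other.

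**Figure D2:**
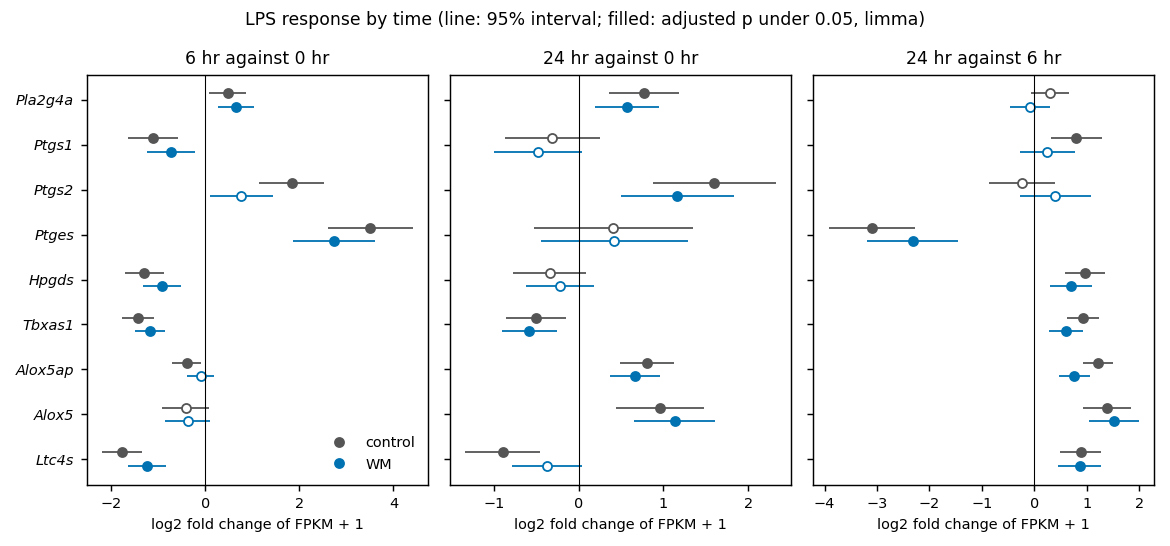
Difference in log2(FPKM + 1) for each member (horizontal axis) with its 95% interval in control (grey) and WM repopulating cells (blue), for 6 hr against 0 hr, 24 hr against 0 hr and 24 hr against 6 hr. Filled points passed an adjusted p of 0.05 in limma. Ptges lies furthest right at 6 hr (3.51 in control and 2.74 in WM cells) and furthest left between 6 and 24 hr.

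Marker levels of the sorted cells moved with LPS as well. The summed level of the 10 microglia markers was 21255 to 24912 FPKM in control cells at 0 hr, 7077 to 9481 FPKM at 6 hr and 10887 to 14738 FPKM at 24 hr, and 20833 to 24484, 8011 to 9508 and 10152 to 14753 FPKM in WM cells. The 8 monocyte markers summed to 105 to 339 FPKM in control cells at 0 hr, 1198 to 2391 FPKM at 6 hr and 436 to 559 FPKM at 24 hr, and to 128 to 405, 1208 to 3340 and 142 to 678 FPKM in WM cells. The 10 neutrophil markers summed to 1930 to 9024 FPKM at 0 hr, 956 to 5847 FPKM at 6 hr and 6482 to 15429 FPKM at 24 hr in control cells, and to 3012 to 11030, 492 to 10322 and 3286 to 7309 FPKM in WM cells. No marker of these 3 lists was at 0 in a whole group. The platelet list (7 of 8 markers in the table) summed to 39.8 to 57.0 FPKM at 0 hr and 9.29 to 27.9 FPKM at the later times, and the mast cell list (6 of 8) to 1.28 to 12.4 FPKM at 0 hr and 6.72 to 52.2 FPKM later. The falls of Ptgs1, Hpgds, Tbxas1 and Ltc4s and the rise of Ptges at 6 hr thus came with lower microglia and higher monocyte marker sums. From 6 to 24 hr, when Alox5 and Alox5ap rose, the neutrophil sums rose without overlap in control cells and overlapped in WM cells. The choroid plexus epithelium list summed to 74.3 to 219, 95.9 to 1359 and 35.7 to 52.8 FPKM in control cells at 0, 6 and 24 hr. In WM cells it summed to 282 to 719, 158 to 601 and 10.999 to 32.6 FPKM. The part of other cells in all these changes was not tested. In bulk libraries of cells or tissue such as these, a smaller share of a cell type and less RNA of the gene per cell cannot be told apart.

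**Figure D3:**
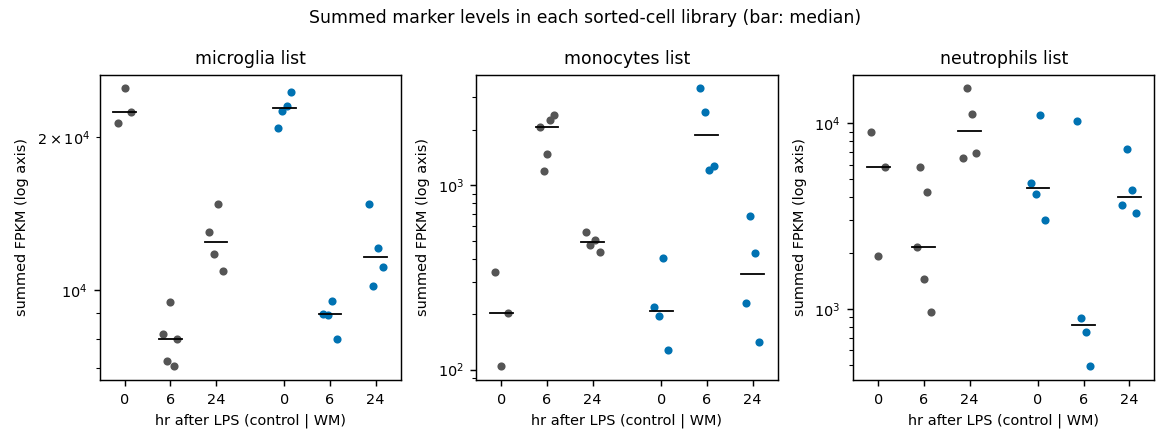
Summed FPKM (log axis) of the microglia, monocyte and neutrophil marker lists in each sorted library of control (grey) and WM repopulating cells (blue) by hour after LPS, with the median as a bar. The microglia sums are highest at 0 hr and the monocyte sums highest at 6 hr, without overlap between these times, and the neutrophil sums spread widely within groups.

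WM repopulating cells were compared with control cells at each time. None of the 9 members passed the test at 0 hr (0 of 9, beside 1.21% of all genes), at 6 hr (0 of 9, beside 0.323%) or at 24 hr (0 of 9, beside 3.97%), with 1, 4 and 2 members at an unadjusted p under 0.05. The difference of Alox5, WM minus control, was 0.63 ± 0.25 at 0 hr (adjusted p = 0.277, limma), 0.67 ± 0.22 at 6 hr (adjusted p = 0.246) and 0.80 ± 0.23 at 24 hr (adjusted p = 0.0504), where leaving out control replicate 4 lowered it to 0.51 (adjusted p = 0.172). The 24 hr difference of Alox5 passed without control replicate 1 (0.95, adjusted p = 0.0366) and with quantile normalization (0.78, adjusted p = 0.0453), and that at 0 hr passed with only the groups compared (0.63, adjusted p = 0.0321). Its groups did not overlap at 0 hr, with 19.2 to 21.1 FPKM in control and 29.6 to 34.6 FPKM in WM cells, or at 24 hr, with 21.6 to 54.8 FPKM in control and 63.3 to 85.3 FPKM in WM cells. Ptgs2 at 0 hr also did not overlap, with 0.300 to 0.466 FPKM in control and 0.805 to 1.55 FPKM in WM cells, on 8 to 13 and 26 to 50 reads, but the test gave an adjusted p of 0.419. The choroid plexus epithelium markers also differed, with sums of 74.3 to 219 FPKM in control and 282 to 719 FPKM in WM cells at 0 hr, but 35.7 to 52.8 FPKM in control and 10.999 to 32.6 FPKM in WM cells at 24 hr, the opposite order, and their part in these values was not tested. Tbxas1 at 0 hr was the remaining member without overlap (202 to 213 FPKM in control and 225 to 255 FPKM in WM cells, adjusted p = 0.636). At 6 hr the differences of Tbxas1 (0.48 ± 0.15, adjusted p = 0.204), Ltc4s (0.50 ± 0.19, adjusted p = 0.353) and Ptgs1 (0.52 ± 0.24, adjusted p = 0.511) also did not pass, and that of Ptgs1 was 0.21 (adjusted p = 0.908) without control replicate 2 at 6 hr. The sums of 3 other marker lists did not overlap either. The endothelial list (5 of 8 markers in the table) summed to 8.40 to 13.8 FPKM in control and 3.62 to 6.93 FPKM in WM cells at 0 hr and to 8.03 to 16.4 and 6.08 to 7.79 FPKM at 6 hr. The astrocyte list summed to 55.6 to 62.0 and 38.1 to 53.2 FPKM at 0 hr, and the border-associated macrophage list to 67.4 to 89.4 and 26.4 to 49.7 FPKM at 24 hr, and their part in the differences was not tested.

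After these values had been seen, the 3 times were joined in the same fit as a mean difference between WM and control cells. In this contrast 1 of 9 members was called, beside 6.4% of all tested genes: Alox5 was higher in WM cells by 0.70 ± 0.14 on the log2(FPKM + 1) scale (95% interval 0.42 to 0.98, adjusted p = 0.00188, limma). This contrast pools the 3 differences given above, so it restates them and is no independent support for a difference of Alox5. Leaving out each of the 24 libraries in turn gave 0.60 to 0.75. The count rose from 1 to 2 members without control replicate 3 at 6 hr, control replicates 3 or 4 at 24 hr, WM replicate 1 at 6 hr or WM replicate 2 at 24 hr. Tbxas1 (0.29 ± 0.09, adjusted p = 0.0613) and Ltc4s (0.32 ± 0.12, adjusted p = 0.106) did not pass, and for Ptgs1, Ptgs2, Ptges, Hpgds, Alox5ap and Pla2g4a the adjusted p was 0.450 or more.

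Whether the LPS response differs between the 2 kinds of cells was tested as an interaction. No member was called at 6 hr (0 of 9, beside 0.0237% of all genes) or at 24 hr (0 of 9, beside 0.0867%), with 1 and 0 members at an unadjusted p under 0.05. For Ptges the difference of the 6 hr responses was -0.77 with a 95% interval of -2.02 to 0.47. For Alox5 at 24 hr it was 0.18 with an interval of -0.53 to 0.88, so differences of these sizes were not excluded. The size for Ptges depended on 1 library and on the pseudocount. Without control replicate 2 at 6 hr its control change was 3.11, beside 2.74 in WM cells. With a pseudocount of 0.1 the control and WM changes were 6.69 and 5.0004.

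SVZ tissue was examined to ask what is left of this gene set when microglia are eliminated. The summed level of the 10 microglia markers was 208 to 278 FPKM in controls, 16.04 to 19.5 FPKM after 14 days of PLX3397 and 26.0 to 33.1 FPKM at 5 days of recovery, 7.29% and 11.9% of the control mean. Of the 7 members tested, 5 were called at 14 days, beside 1.26% of all genes, and 5 at 5 days of recovery, beside 1.27%, all of them lower than control. Ptgs2 and Alox5 were below the limit for testing (FPKM of at least 1 in at least 3 libraries).

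Alox5ap fell from 4.80, 6.91, 3.91, 6.46 and 5.54 FPKM in control tissue to 0.782, 0.773, 0.683, 0.858 and 1.28 FPKM at 14 days, a change of -1.79 ± 0.15 (adjusted p = 8.07e-07, limma). At 5 days of recovery it was at 2.61, 1.99, 1.07, 1.94 and 2.23 FPKM, still below every control (-1.14 ± 0.15, adjusted p = 0.000245). The values of Alox5ap rest on 19 to 45 reads per library in control tissue, 6 to 7 at 14 days and 8 to 16 at recovery. Between 14 days of PLX3397 and recovery, Alox5ap differed by 0.65 ± 0.15 (adjusted p = 0.0946), with 1 recovery library inside the range of the 14 day group. Without that library, recovery replicate 3, Alox5ap passed the test (0.77, adjusted p = 0.0248), and with a pseudocount of 0.1 the difference was 1.063 and did not pass. Other markers moved at recovery: the 3 neutrophil markers in the table (of 10) summed to 1.53 to 4.28 FPKM in controls, 0.0275 to 4.24 FPKM at 14 days and 1.71 to 15.4 FPKM at recovery, and the 8 astrocyte markers to 1226 to 1692, 1593 to 1749 and 1728 to 2670 FPKM, and their part in these differences was not tested.

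Tbxas1 was at 1.42, 2.87, 1.43, 1.40 and 2.39 FPKM in control tissue, at 0.225, 0.238, 0.147, 0.264 and 0.275 FPKM at 14 days (-1.21 ± 0.14, adjusted p = 3.88e-05) and at 0.282, 0.430, 0.290, 0.784 and 0.577 FPKM at recovery (-0.96 ± 0.14, adjusted p = 0.000649). Its 14 day values rest on 3 to 5 reads per library, and with a pseudocount of 0.1 the differences of Tbxas1 from control were -2.55 at 14 days and -1.82 at recovery. Every recovery value lay above every 14 day value, but the difference did not pass the test (0.25 ± 0.14, adjusted p = 0.388). No member was called between recovery and 14 days (0 of 7, beside 0.325% of all genes), with 1 member at an unadjusted p under 0.05.

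Ptgs1, Hpgds, Alox5ap and Tbxas1 stood at a higher share of their control mean than the microglia marker sum did, a difference that was given no test. Ltc4s did so at both times only without the control library high in choroid plexus markers. Ptgs1 was at 6.10, 8.47, 8.33, 6.93 and 6.64 FPKM in control tissue, at 3.54, 3.36, 2.68, 2.81 and 2.47 FPKM at 14 days and at 3.18, 3.56, 3.49, 2.24 and 2.79 FPKM at recovery. It was lower at 14 days (-1.06 ± 0.12, adjusted p = 2.12e-05) and at recovery (-1.04 ± 0.12, adjusted p = 3.77e-05), at 40.7% and 41.8% of the control mean. Hpgds was at 1.70, 3.71, 3.49, 1.67 and 2.33 FPKM in control tissue, at 0.660 to 0.793 FPKM at 14 days (-1.01 ± 0.15, adjusted p = 0.000702) and at 0.4995 to 1.04 FPKM at recovery (-0.94 ± 0.15, adjusted p = 0.0018), 28.0% and 31.8% of control. With a pseudocount of 0.1, the differences of Hpgds were -1.63 and -1.50. Alox5ap stood at 15.8% and 35.6% of the control mean and Tbxas1 at 12.1% and 24.8%. The 5 border-associated macrophage markers in the table (of 8) summed to 3.9 to 7.7 FPKM in controls and stood at 31.0% and 39.8% of the control mean, and the endothelial list at 88.8% and 92.1%, and the part of these cells in the remaining levels was not tested.

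Ltc4s was at 71.6, 7.81, 9.36, 9.10 and 8.76 FPKM in control tissue, at 1.89, 1.28, 2.31, 1.07 and 2.16 FPKM at 14 days and at 1.26, 0.413, 1.76, 1.23 and 1.08 FPKM at recovery. The values of Ltc4s rest on 6 to 14 reads per library at 14 days and on 2 to 9 at recovery. The control library at 71.6 FPKM is the library with the high choroid plexus epithelium markers. Ltc4s was lower at 14 days (-2.43 ± 0.44, adjusted p = 0.00442) and at recovery (-2.79 ± 0.44, adjusted p = 0.00123) with that library, and without it the differences were -1.85 (adjusted p = 4.46e-06) and -2.21 (adjusted p = 6.36e-07). The part of choroid plexus in the remaining libraries was not tested, and Ltc4s stood at 19.9% and 13.1% of the mean of the other 4 controls.

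Ptges and Pla2g4a did not pass the test in SVZ tissue. Ptges was at 1.24, 1.20, 1.052, 1.32 and 1.41 FPKM in controls, at 0.702, 0.7495, 1.17, 1.004 and 1.99 FPKM at 14 days (95% interval of the difference -0.41 to 0.19) and at 1.32, 1.498, 0.9754, 0.794 and 1.22 FPKM at recovery (-0.36 to 0.24). Pla2g4a was at 1.14 to 1.77 FPKM in controls, 1.08 to 1.54 FPKM at 14 days (-0.43 to 0.19) and 0.887 to 2.40 FPKM at recovery (-0.15 to 0.47). Ptgs2, at 0.362 to 0.861, 0.202 to 1.44 and 0.324 to 0.581 FPKM, and Alox5, at 0.155 to 0.743, 0.0344 to 0.333 and 0.0406 to 0.329 FPKM, overlapped between all 3 groups.

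**Figure D4:**
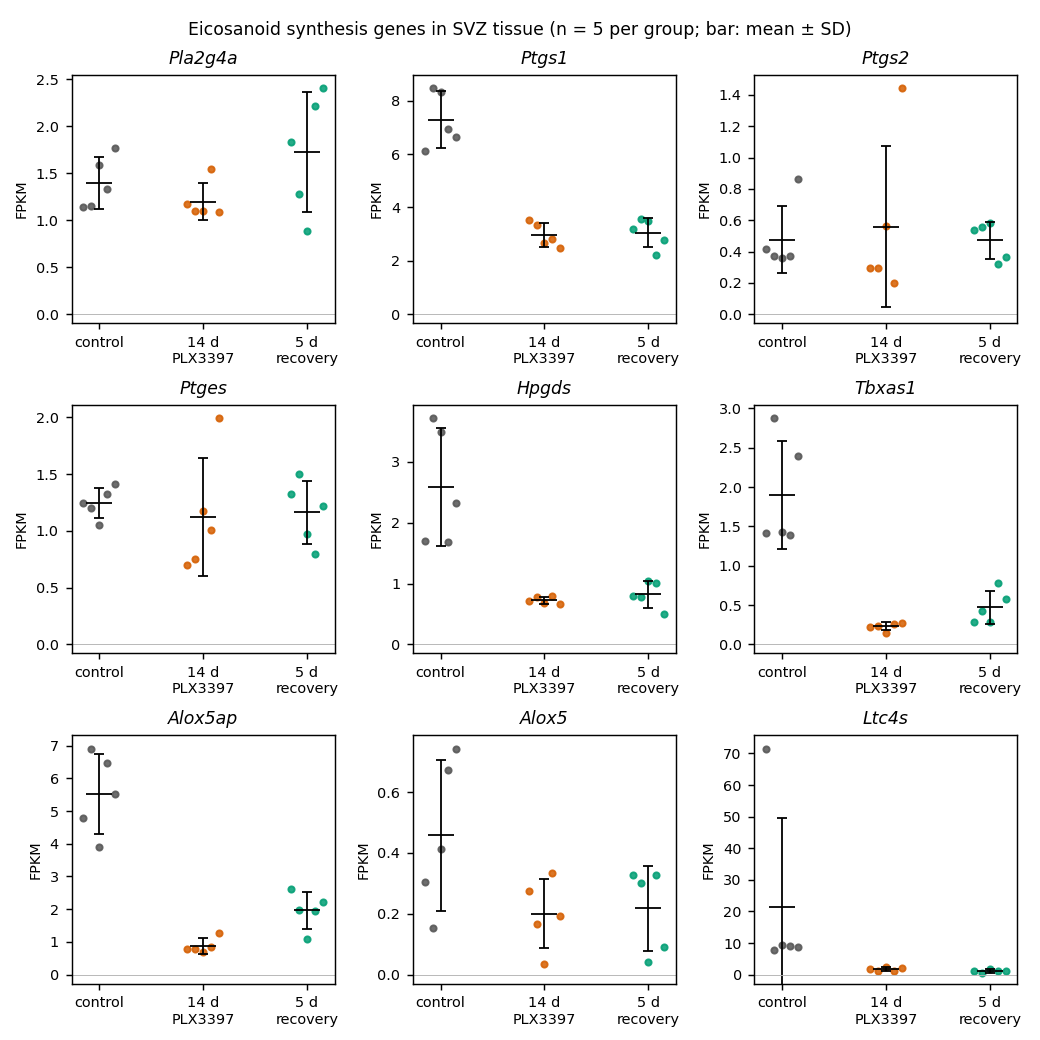
FPKM of the 9 members in each SVZ library (vertical axis, linear) for tissue of control mice, after 14 days of PLX3397 and at 5 days of recovery, with the mean and SD as a bar (n = 5 per group). Ptgs1, Hpgds, Tbxas1, Alox5ap and Ltc4s lie below every control library in both treated groups, and 1 control library of Ltc4s stands at 71.6 FPKM.

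GLOBAL repopulating cells were compared with control cells to ask whether refilled microglia differ after a shorter elimination. None of the 8 tested members was called (0 of 8, beside 0% of all 16651 tested genes), with 3 members at an unadjusted p under 0.05 in limma, and Ptges was below the limit for testing. Ltc4s was at 487, 420.1, 412 and 549 FPKM in control and 634, 592 and 641 FPKM in GLOBAL cells (0.42 ± 0.15, adjusted p = 0.454). Pla2g4a was at 14.9, 17.04, 12.1 and 13.8 FPKM in control and 17.8, 18.9 and 24.8 FPKM in GLOBAL cells (0.47 ± 0.17, adjusted p = 0.478). Tbxas1 was at 118, 132, 153 and 154 FPKM in control and 162, 174 and 189 FPKM in GLOBAL cells (0.33 ± 0.14, adjusted p = 0.53, and 0.21 with quantile normalization). Hpgds (72.5 to 87.7 FPKM in control, 89.7 to 107 FPKM in GLOBAL cells) was the fourth member whose groups did not overlap. Ptgs1, Ptgs2, Ptges, Alox5ap and Alox5 overlapped. The neutrophil marker sum was 2324 to 23324 FPKM in control and 1469 to 4830 FPKM in GLOBAL cells, and the microglia marker sum 14639 to 17998 and 17078 to 17464 FPKM. The platelet list (6 of 8 markers in the table) summed to 37.8 to 63.3 FPKM in control and 64.1 to 72.3 FPKM in GLOBAL cells. The border-associated macrophage list summed to 42.4 to 58.5 FPKM in control and 19.8 to 34.4 FPKM in GLOBAL cells, the mast cell list (6 of 8) to 10.3 to 24.4 and 6.98 to 10.1 FPKM, and the astrocyte list (7 of 8) to 31.6 to 33.8 and 25.3 to 29.6 FPKM, so that these 3 lists and the platelet list did not overlap, and the part of all these lists in the differences was not tested.

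**Figure D5:**
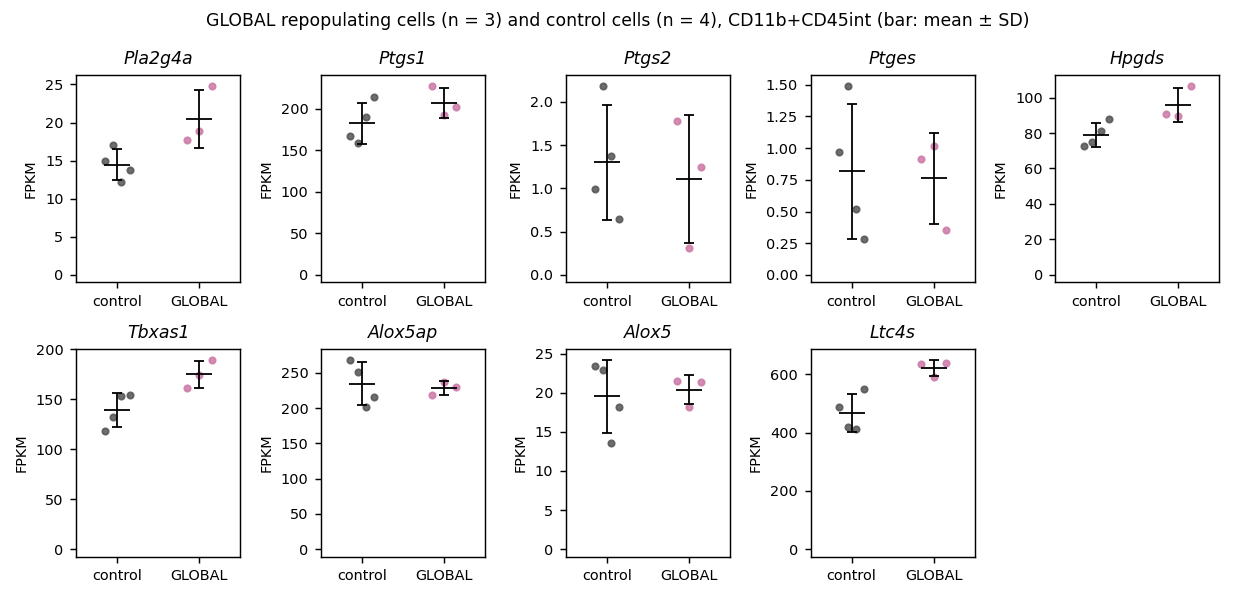
FPKM of the 9 members in each library of control (grey, n = 4) and GLOBAL repopulating cells (pink, n = 3), with the mean and SD as a bar. Ltc4s, Tbxas1, Hpgds and Pla2g4a do not overlap between the groups, and no member passed the test.

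In the GLOBAL experiment Ltc4s led with a mean of 467 FPKM in control and 622 FPKM in GLOBAL cells, Alox5ap followed at 234 and 228 FPKM, Ptgs1 at 183 and 207 FPKM and Tbxas1 at 139 and 175 FPKM, and Ptgs2 (1.30 and 1.11 FPKM) and Ptges (0.816 and 0.762 FPKM) were lowest. These levels cannot be set against those of the LPS experiment, since the tables were normalized separately.

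A list of 53 other genes of eicosanoid release, synthesis, breakdown and reception was counted beside the members. Of these, 39 were tested in the LPS experiment, and at 6 hr 10 rose and 18 fell in control cells, beside 42.5% of all tested genes called, and 7 rose and 14 fell in WM cells, beside 38.8%. At 24 hr against 0 hr, 5 rose and 8 fell in control cells, beside 21.3%, and 5 rose and 7 fell in WM cells, beside 18.8%. Between 6 and 24 hr, 15 rose and 6 fell in control cells, beside 28.3%, and 11 rose and 4 fell in WM cells, beside 15.7%. The median log2 fold change of the tested list was -0.27 in control and -0.23 in WM cells at 6 hr. Of 24 list genes past a log2 fold change of 1 in a sorted-cell comparison, the 12 with the largest changes are named here.

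Among receptors, Fpr2, a receptor for formyl peptides that also binds lipoxin, rose from 2.64 ± 1.63 to 41.3 ± 14.2 FPKM in control cells at 6 hr (3.57, adjusted p = 8.86e-07, limma) and by 3.64 in WM cells (adjusted p = 5.23e-07). Ltb4r1, the high-affinity receptor for leukotriene B4, rose from 14.3 ± 5.42 to 92.5 ± 32.7 FPKM in control cells (2.60, adjusted p = 3.4e-06) and by 2.38 in WM cells (adjusted p = 8.57e-06). Ptgir, the prostacyclin receptor, rose by 2.01 in control cells (adjusted p = 3.68e-05) and 1.38 in WM cells (adjusted p = 0.00156) from mean levels of 0.0623 and 0.671 FPKM. Ptger3, a prostaglandin E2 receptor, fell from 5.37 ± 1.12 to 0.636 ± 0.412 FPKM in control cells (-1.99, adjusted p = 2.02e-07). In WM cells Ptger3 was at 0.809 ± 0.249 FPKM before LPS, lower than in control cells (-1.81 ± 0.24, adjusted p = 0.000206). It was at 0.312 ± 0.175 FPKM at 6 hr in WM cells, and this change did not pass the test (-0.46, adjusted p = 0.0995). The difference of these responses did not pass either (1.53 ± 0.32, adjusted p = 0.147). From so low a level a fall is small on the log2(FPKM + 1) scale, which limits the WM change and this difference.

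Among enzymes, Pla2g7, which breaks down platelet-activating factor, rose from 8.86 ± 2.10 to 128 ± 34.2 FPKM in control cells at 6 hr (3.68, adjusted p = 9.01e-08) and by 4.17 in WM cells (adjusted p = 1.09e-08). Hpgd, which inactivates prostaglandins, fell from 155 ± 9.26 to 14.4 ± 10.1 FPKM in control cells (-3.58, adjusted p = 5.08e-09) and from 148 ± 21.1 to 23.6 ± 0.639 FPKM in WM cells (-2.59, adjusted p = 5.01e-07). Mgll, which frees arachidonic acid from a monoacylglycerol, fell in control cells (-2.45, adjusted p = 4.34e-09) and in WM cells (-2.20, adjusted p = 1.72e-08). Pla2g15, a lysosomal phospholipase, fell at 6 hr in control cells (-1.92, adjusted p = 0.000193) and in WM cells (-1.75, adjusted p = 0.000413). Mgst2, a microsomal glutathione transferase, fell in control cells (-2.09, adjusted p = 7.88e-05) and in WM cells (-0.94, adjusted p = 0.0416). Ephx1, the microsomal epoxide hydrolase, fell to its lowest mean at 24 hr, with a change from 0 hr of -1.93 in control cells (adjusted p = 1.99e-05) and -1.56 in WM cells (adjusted p = 9.91e-05). Cyp4f18, which oxidizes leukotriene B4, rose at 24 hr by 2.22 in control cells (adjusted p = 3.81e-05) and 2.84 in WM cells (adjusted p = 6.4e-07), and Dpep2, which cleaves leukotriene D4, by 2.66 (adjusted p = 6e-05) and 1.67 (adjusted p = 0.00321).

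Between WM and control cells, 39 list genes were tested. At 0 hr 0 rose and 2 fell, beside 1.21% of all genes called (Ptger3, given above, and Mgll at -0.94, adjusted p = 0.0384, limma). At 6 hr 0 passed the test, beside 0.323% (1 without control replicate 3 at 6 hr). At 24 hr 0 rose and 2 fell, beside 3.97% of all genes. These were Ggt1, a gamma-glutamyltransferase that acts on leukotriene C4 (-1.25, adjusted p = 0.00399), and Mgll (-0.96, adjusted p = 0.00892). With a pseudocount of 0.1, neither Ptger3 nor Mgll was called at 0 hr. No list gene was called in the interactions, beside 0.0237% of all genes at 6 hr and 0.0867% at 24 hr. None of the 47 tested in the GLOBAL experiment was called either, beside 0%, and 1 was called with the replicate block. In SVZ tissue, 33 list genes were tested. Hpgd fell at 14 days (-1.57, adjusted p = 3.53e-06), where 1.26% of all genes were called. It also fell at recovery (-1.61, adjusted p = 3.02e-06), where 1.27% were called. Anxa1, whose product dampens phospholipase A2 activity, rose at recovery (0.74, adjusted p = 0.0107).

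The genes whose pattern over the 24 sorted libraries was most like that of each member, by Pearson's r of log2(FPKM + 1), are given as a description, since the libraries share their groups. Ptgs1 was most like Slc25a45 (r = 0.957), Slco2b1 (0.957) and Nfatc1 (0.953), and Tbxas1 most like Slc46a1 (0.9748), Scamp2 (0.973) and Susd3 (0.973). Hpgds went with Qk (0.940), Aif1 (0.938) and Asph (0.933), and Ltc4s with Atraid (0.951), Ldhb (0.948) and Kifap3 (0.947). Ptges was most like Vcan (0.963), which is in the monocyte marker list, Tax1bp1 (0.958) and Nrg1 (0.955), and Ptgs2 most like Ets2 (0.906), Cxcl2 (0.874) and Igsf6 (0.863). Alox5 went with Gusb (0.951), Sorl1 (0.917) and Hsd3b7 (0.857), Alox5ap with Sdf2l1 (0.937), Rfc2 (0.921) and Stra13 (0.918), and Pla2g4a with Snx2 (0.881), Fam96a (0.864) and Tceb1 (0.844). Among the members themselves, r was 0.894 for Ptgs1 and Tbxas1, 0.865 for Tbxas1 and Ltc4s and 0.841 for Hpgds and Ltc4s, Alox5 and Alox5ap had an r of 0.754, and Ptges ran opposite to Tbxas1 (-0.869).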

How the data were processed

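RNA was measured in 46 libraries of mouse SVZ tissue and sorted CD11b+CD45int cells, grouped by their titles. Per the study's methods, RNA was isolated with RNeasy kits, cDNA was made with Smart-seq2, and reads were aligned with STAR and counted with featureCounts, with limma used downstream. The submitters' processing notes name mm10. The labels describe another sequencing provider and read length than the methods, and their extraction text speaks of frozen cortex, hippocampus and thalamus or striatum, where the titles and methods name SVZ tissue and sorted cells, so which protocol applies to which library is not settled. The authors deposited FPKM values, a table per experiment, scaled by gene length and library size; the methods call the unit RPKM. No column of per-sample values was left out.

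FPKM values of a gene are whole multiples of the value of 1 read, from which relative depth, gene length and reads were recovered. All 414 member values were whole within 0.01 of a read. Reads were used to state depth and floors only. Floors cover counting error only, and the 95% intervals printed are those of the limma fit.

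Each table was fitted with limma 3.58.1 (R 4.3.3) on log2(FPKM + 1), for genes that reached 1 FPKM in 3 or more libraries (14151, 12684 and 16651 genes), with all groups of a table in 1 fit, a variance trend, two-sided tests and Benjamini-Hochberg adjustment over all tested genes. Calls are an adjusted p under 0.05, and fold changes on this scale understate changes of low genes. Alternatives were a pseudocount of 0.1, no filter, quantile normalization, no trend, only the groups compared, a replicate block and each library left out. Figures and sequence searches used Python 3.11.15.

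The members, the list of 53 other genes and the marker lists were chosen with earlier results of these data known. All 9 members are named, with list genes called in a sorted-cell comparison past a log2 fold change of 1 (at most 12, by size) and the 3 genes most correlated with each member. The 2 list genes Ggt1 and Anxa1 were named after their values were seen. Replicates are separate samples by their labels, and nothing in the labels names the animal of each library, so p-values measure the spread between these samples.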

Additional observations from a re-analysis of the deposited data

Results flagged for a closer look

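Of 81 sets of values (a member in a group of 4 or 5 libraries) that were screened for a library far from the others, 7 had a highest or lowest value whose gap to its neighbour exceeded Dixon's critical share of the range, and chance alone flags about 1 in 20 such sets. In SVZ control tissue, Ltc4s in replicate 1 (71.6 FPKM) stood above the other 4 libraries, and the choroid plexus epithelium markers of that library summed to 21338 FPKM. In the same group Ptgs2 in replicate 5 (0.861 FPKM) was high, and after 14 days of PLX3397 Pla2g4a in replicate 4 (1.54 FPKM) was high. In control cells 6 hr after LPS, replicate 2 was high for Ptges (33.5 FPKM) and for Ptgs2 (12.9 FPKM), and it was also the lowest of its group for Ptgs1 (73.9 FPKM), with the highest neutrophil marker sum (5847 FPKM) and the lowest monocyte marker sum (1198 FPKM) of the 5 libraries. Without it, the 6 hr change in control cells was 1.46 for Ptgs2 (adjusted p = 2.24e-05, limma) and 3.11 for Ptges (adjusted p = 3.19e-07). In WM cells 6 hr after LPS, Alox5ap in replicate 1 (443 FPKM) was high and Tbxas1 in replicate 4 (93.9 FPKM) was low. Replicate 1 had the highest neutrophil marker sum (10322 FPKM, against 492 to 890 FPKM) and the highest monocyte marker sum (3340 FPKM) of these 4 libraries. The part of other cells in these values was not tested.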

How the results depend on the processing

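All 882 refits of the 61 member differences at an unadjusted p under 0.05 kept their direction, and 841 kept their side of the threshold. The refits share their libraries with the fits that selected these differences, so kept directions are no independent support. Of 229 refits of the counts of called members, which leave out the mean over the 3 times given above, 225 stayed within 1.5 times the count reported. The exceptions are comparisons with 0 members called, in which 1 was called: Alox5 between WM and control cells at 24 hr with quantile normalization, Alox5 at 0 hr with only the groups compared in the fit, and, with 1 library left out, a range of 0 to 1 for WM against control at 24 hr (Alox5, without control replicate 1) and of 0 to 1 for SVZ recovery against 14 days of PLX3397 (Alox5ap). Ptgs2 passed in WM cells at 6 hr with a pseudocount of 0.1 (1.12, adjusted p = 0.0365, limma) and with only the groups compared (adjusted p = 0.0154). With a pseudocount of 0.1, the 6 hr change of Ptges in control cells became 6.69. The causes of these changes were not tested. Without control replicate 4 at 24 hr, the difference of Alox5 between WM and control cells at 24 hr was 0.51 (adjusted p = 0.172). Of the 53-gene list, 2 genes were called at 0 hr between WM and control cells, 0 with a pseudocount of 0.1, and 1 with the replicate block or when any 1 of 7 libraries was left out. At 24 hr, 2 list genes were called, and 1 with a pseudocount of 0.1 or with only the groups compared. At 6 hr, 0 were called, and 1 without control replicate 3. In the GLOBAL experiment 0 list genes were called, and 1 with the replicate block, and in SVZ tissue at 14 days 1, and 2 with no filter on low values. Same-numbered replicates did not consistently deviate together (correlations ran from -0.190 to 0.486, and no pair of groups had every correlation over 0.1). With 3 to 5 shared numbers in each pair of groups, this cannot exclude that samples were handled by number. With the replicate block, 6 in place of 8 members were called in control cells at 6 hr (Alox5ap and Pla2g4a lost) and 5 in place of 6 at 24 hr (Tbxas1 lost). The other counts were as without it (5 and 5 in SVZ tissue, 6 and 5 in WM cells at 6 and 24 hr, 0 in the GLOBAL experiment). Members at low FPKM rest on few reads, so their differences are limited by depth. In SVZ tissue at recovery this holds above 1 FPKM as well, with 8 to 16 reads for Alox5ap at 1.07 to 2.61 FPKM.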
